A study of Homo sapiens with 24 samples.

Results

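The genes described here are the ADAMTS proteases, the ADAMTS-like proteins (ADAMTSL), the matrix metalloproteinases (MMP) and the tissue inhibitors of metalloproteinases (TIMP). The members were chosen by their symbols: every numbered ADAMTS, ADAMTSL and MMP gene and TIMP1 to TIMP4. This gave 50 of the 60641 gene symbols in the count tables, namely 19 ADAMTS, 5 ADAMTSL, 22 MMP and 4 TIMP genes. The family was taken up because ADAMTS9 was known from earlier results of these data to have 0 counts in A549 MSTRG.2513.6 KO. All values of that KO against A549 wild-type cells are therefore given as a description, and nothing is supported with them.

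ADAMTS proteases and MMPs are zinc enzymes that cut extracellular matrix proteins such as collagens, aggrecan and versican. Most MMPs are made as inactive precursors and are switched on outside the cell. MMP2, a gelatinase, is activated at the cell surface by the membrane-bound protease MMP14, with TIMP2 holding the MMP2 precursor in place. TIMPs block the active enzymes, and TIMP3 also inhibits several ADAMTS proteases. ADAMTSL proteins resemble the ADAMTS tail but lack the protease part. Tumour cell lines grown alone often make few of these enzymes, many of which are known from fibroblasts, chondrocytes and leukocytes.

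The data were RNA-seq gene counts of 24 libraries from 2 human tumour cell lines, A549 from a lung adenocarcinoma and HCT116 from a colorectal carcinoma. They fall into 8 groups of 3 libraries. In the KO groups, the sequence taken to be the DNA-binding domain of an assembled noncoding transcript had been deleted with CRISPR/Cas9. In A549 this was done for MSTRG.2513.6 and for MSTRG.4401.1, with wild-type libraries named WT B here. In HCT116 the same transcripts and also MSTRG.34636.7 were targeted, and wild-type cells came in 2 sets, WT A and WT B. WT A, whose libraries share the numbering 1A to 3A with MSTRG.34636.7 KO, served as the control of that KO, and WT B of the same line as the control of the rest. The labels do not say whether a KO line is 1 clone, or whether libraries of a group came from separate cultures, so the tests measure the spread between these libraries, which may be technical. The MSTRG transcripts are not among the symbols counted, and the deletions were not checked from these counts.

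Library totals ranged from 25799359 to 102261808 counts, and the 3 libraries of A549 MSTRG.4401.1 KO were among the shallowest, with 25799359 to 33205007. Mitochondrial genes took 3.50% to 7.87% of the counts in that KO and 1.96% to 2.37% in A549 WT B. In the shallowest library, 3 counts corresponded to 0.116 CPM (counts scaled to the library total). The libraries labelled S8 and S9 of HCT116 MSTRG.2513.6 KO went against their label. Their correlation was 0.971 to 0.995 with the A549 libraries (Pearson's r over genes), 0.991 to 0.995 with those of MSTRG.2513.6 KO among them, and 0.916 to 0.927 with the other HCT116 libraries. The summed level of 8 lung markers was 5924 to 9175 CPM in A549 and reached 8334 CPM within HCT116 MSTRG.2513.6 KO, against at most 13.3 CPM in the other HCT116 groups. The 7 colon markers summed to 16.8 to 27.1 CPM in the HCT116 groups other than MSTRG.2513.6 KO, to 7.98 to 12 CPM in A549 WT B and to 17.3 to 22.9 CPM in A549 MSTRG.4401.1 KO, so the list did not set HCT116 apart from that KO. The sums hide members that went the other way. In A549 WT B against HCT116 WT B, the lung markers AKR1B10, AKR1C1 and ALDH1A1 were higher and NKX2-1 was lower. Of the colon markers, CDH17, LGALS4 and VIL1 were higher in A549 and CDX2 and KRT20 lower. S8 and S9 stay in the group of their label here, and results that rest on them are given with and without them.

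Of the 50 members, 28 reached a mean of 1 CPM in at least 1 group, and 19 reached 10 CPM. In every group 14 members had a mean of at least 1 CPM. The other 22 stayed below 1 CPM in all 8 groups, and MMP26 and MMP27 had 0 counts in all 24 libraries. Most of the classical secreted enzymes were in this low set. The collagenases MMP1, MMP8 and MMP13, which cut fibrillar collagen, had group means of at most 0.214 CPM. The stromelysins MMP3 and MMP10 had group means of at most 0.0699 and 0.286 CPM, and the gelatinase MMP9 reached 0.504 CPM. The main aggrecan-cutting enzymes ADAMTS4 and ADAMTS5 reached 0.548 and 0.0466 CPM. On chromosome 11, 9 MMP genes lie side by side within 435225 bases (chr11:102520508-102955732, GRCh38), and MMP7, a matrilysin, was the 1 gene of this cluster to reach a mean of 1 CPM.

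**Figure D1:**
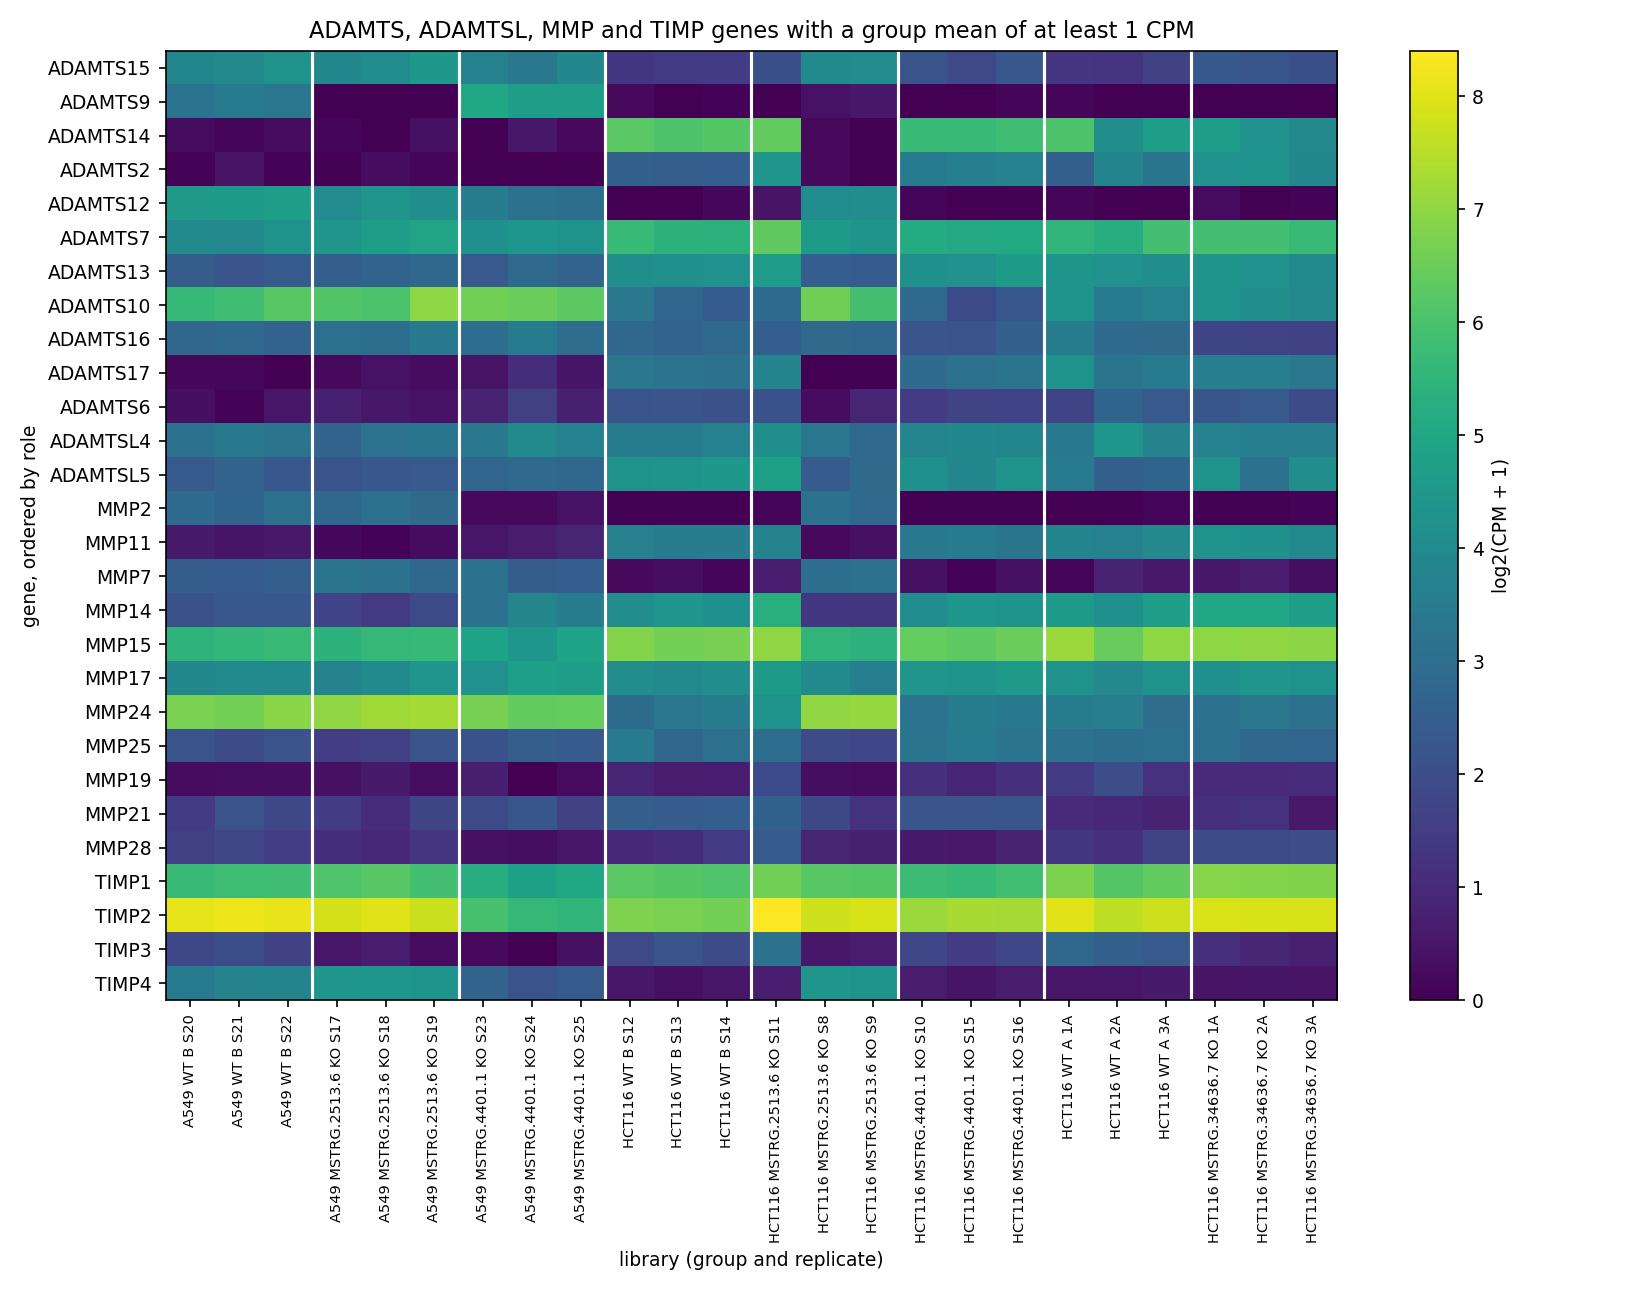
Levels of the 28 members with a group mean of at least 1 CPM, one row per gene and one column per library, as log2(CPM + 1) on the colour scale. White lines separate the 8 groups. The columns of S8 and S9 resemble the 9 A549 columns, and TIMP2 is the brightest row in A549 WT B.

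To set levels of different genes side by side, CPM was divided by the exon length of the gene in kilobases. In A549 WT B the inhibitors TIMP2, with 45.0 ± 1.37 CPM per kilobase (SD, n = 3), and TIMP1, with 37.1 ± 2.09, stood above all proteases of the list. They were followed by MMP24, a membrane-type MMP, with 24.4 ± 2.30, MMP15 with 11 ± 0.994 and ADAMTS10 with 10.5 ± 2.29. The levels per kilobase of MMP15, ADAMTS10 and TIMP4, which had 9.77 ± 1.38, did not differ beyond their spread. In HCT116 WT B the order per kilobase was TIMP1 (49.5 ± 2.85), the membrane-type enzyme MMP15 (24.8 ± 1.94), TIMP2 (16.7 ± 0.648) and ADAMTS14 (12.7 ± 0.908), which removes the amino-terminal propeptide of procollagens. In HCT116 WT A, TIMP2 (35.9 ± 5.06) stood before MMP15 (27.7 ± 6.52) on this scale, their spreads overlapping, and ADAMTS14 had 6.37 ± 4.67, so the order depended on the wild-type set. TIMP1 alone made up 35.0% of the summed level per kilobase of the 50 members in HCT116 WT B, and TIMP2 27.9% in A549 WT B.

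**Figure D2:**
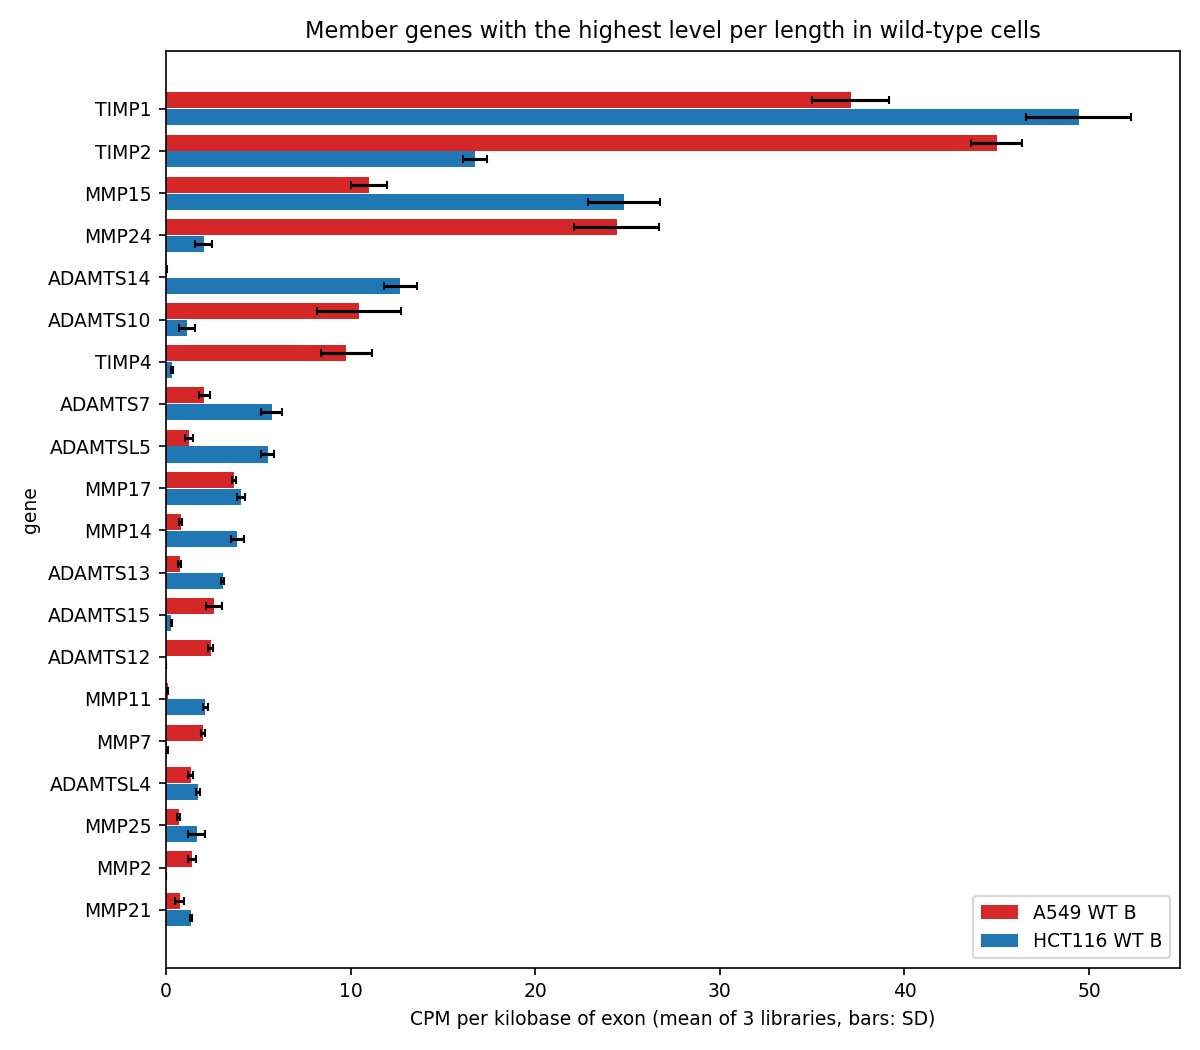
Mean level per exon length in A549 WT B (red) and HCT116 WT B (blue) for the 20 members with the highest values, in CPM per kilobase, with bars for the SD of 3 libraries. TIMP1 and MMP15 are longer in HCT116 and TIMP2, MMP24, ADAMTS10 and TIMP4 in A549.

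The 2 cell lines shared 14 members with a mean of at least 1 CPM in every group, and differed in the levels of many members. In A549 WT B against HCT116 WT B, 12 of the 31 members tested were higher and 11 were lower in A549, at FDR < 0.1 and |log2(fold change)| > 1 in edgeR's quasi-likelihood test. ADAMTS9, which led to the choice of the family, is counted among the 12. The A549 WT B libraries were part of the contrast in which it was first seen, so its call is a description only. Among all 27882 genes tested, 17.2% were higher and 18.5% lower. The median size of the log2 fold change was 2.01 over the members and 0.72 over all genes. With HCT116 WT A as the control, 10 members were higher and 10 lower, and TIMP2 (0.54 ± 0.16, against 1.69 ± 0.06 with WT B), ADAMTSL3, ADAMTSL5, MMP25 and MMP28 lost their calls. Leaving out 1 library, 21 of the 23 members stayed called. MMP25, a membrane-type MMP of leukocytes, lost its call without A549 library S21 (-0.93) or S22 (-0.99) or HCT116 library S12 (-0.79), and MMP28 without S21 (0.91), S12 (0.83) or S13 (0.96).

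The members higher in A549 included MMP24, which HCT116 cells also made, and ADAMTS12, MMP2 and TIMP4, which were close to or at 0 in HCT116 WT B. MMP24 had 103, 99.3 and 118 CPM in A549 WT B and 6.90, 9.12 and 10.8 CPM in HCT116 WT B. The A549 libraries stood far above the HCT116 libraries, with a log2 fold change of 3.83 ± 0.17 (SE, adjusted p = 1.53e-06). MMP24OS, on the opposite strand of MMP24, did not follow it, with 15.3 to 15.8 CPM in A549 WT B and 23.9 to 28 CPM in HCT116 WT B. ADAMTS12, a protease that cuts cartilage oligomeric matrix protein, had 22.1, 23.1 and 24.8 CPM in A549 WT B, and 0, 0 and 0.133 CPM in HCT116 WT B. MMP2 had 6.73, 5.58 and 7.60 CPM in A549 WT B and 0 counts in HCT116 WT B. Against 3 counts in each HCT116 library, MMP2 was at least 129-fold higher in A549. TIMP4, an inhibitor with a narrow tissue range, had 9.77, 12.5 and 12.7 CPM in A549 and 0.458, 0.312 and 0.416 CPM in HCT116 (log2 fold change 5.14 ± 0.19). SYN2, in whose intron TIMP4 lies on the opposite strand, ran the other way, with 0.529 to 0.900 CPM in A549 WT B and 17.1 to 19.3 CPM in HCT116 WT B.

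HCT116 in turn made 2 of the 3 procollagen N-propeptidases, while the third, ADAMTS3, had 0 counts in every HCT116 library. ADAMTS14 had 75.4, 65.4 and 71.1 CPM in HCT116 WT B and 0.204, 0.0841 and 0.217 CPM in A549 WT B, with a log2 fold change of -8.47 ± 0.23 (adjusted p = 1.73e-07). ADAMTS2, of the same subgroup, had 5.11, 4.89 and 4.69 CPM in HCT116 and at most 0.370 CPM in A549. MMP11, a stromelysin activated inside the cell, had 11.7, 10.8 and 10.4 CPM in HCT116 and 0.510, 0.387 and 0.505 CPM in A549. MMP14 was also higher in HCT116, with 16.5, 19.6 and 17.4 CPM against 3.28, 3.88 and 3.85 CPM in A549 (log2 fold change -2.03 ± 0.13). In these wild-type cells, MMP14 was thus high where MMP2 had 0 counts. TIMP1, a broad MMP inhibitor, was not called and had a log2 fold change of -0.16 ± 0.06 (adjusted p = 0.0575).

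Across all libraries, 7 members had no overlap between the 9 A549 libraries and, leaving out S8 and S9, the 13 of HCT116, with A549 higher, and 9 with HCT116 higher. S8 and S9 fell on the A549 side for all 16 of these members. ADAMTS14, for example, had 0.170 and 0 CPM in S8 and S9 and 82.3 CPM in S11, the third library of that group. TIMP4 had 19.9 and 18.5 CPM in S8 and S9, close to the 19.2 to 20.5 CPM of TIMP4 in A549 MSTRG.2513.6 KO, and 0.605 CPM in S11. Separation without overlap was counted for the members only, not over all genes. Of all genes tested, 17.2% were called higher and 18.5% lower in A549 WT B than in HCT116 WT B. The counts of 7 and 9 members therefore have no background and are not read as a trait of the family.

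ADAMTS9, a conserved protease that cuts versican and aggrecan, lies on chromosome 3 (chr3:64515654-64688000, minus strand, GRCh38). It had 8.17, 10.1 and 8.73 CPM in A549 WT B, 31.6, 25.3 and 24.9 CPM in A549 MSTRG.4401.1 KO and 0 counts in all 3 A549 libraries of MSTRG.2513.6 KO. The 3 A549 groups did not overlap. Against 3 counts in each library of A549 MSTRG.2513.6 KO, the level in A549 MSTRG.4401.1 KO was at least 500.1-fold higher. Both statements take in the 0 counts that led to the choice of the family, so they are a description only. In A549 MSTRG.4401.1 KO against WT B, ADAMTS9 rose by a log2 fold change of 1.52 ± 0.15 (adjusted p = 0.00035), and it stayed called without any one of the 6 libraries. The 2 A549 KOs share their wild-type libraries. In the HCT116 groups without S8 and S9, ADAMTS9 was at most 0.153 CPM. S8 and S9 had 0.339 and 0.454 CPM of ADAMTS9, above 0 although their profiles were closest to the KO in which ADAMTS9 had no counts.

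ADAMTS9-AS1, a long noncoding RNA on the opposite strand over the ADAMTS9 locus, moved in the same directions at a lower level. It had 0.459, 0.488 and 0.842 CPM in A549 WT B, 4.19, 1.71 and 1.26 CPM in A549 MSTRG.4401.1 KO and 0 counts in A549 MSTRG.2513.6 KO. In MSTRG.4401.1 KO its log2 fold change was 1.93 ± 0.47 (adjusted p = 0.016). The library kit keeps the strand, but whether counting used it is not given in the sources used here, so reads of the pair may not be fully separated. ADAMTS9-AS2 reached at most 0.543 CPM.

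In A549 MSTRG.4401.1 KO, proteases moved in both directions and inhibitors downward. Of 28 members tested, 4 rose and 6 fell, beside 11.1% of all 24979 genes called higher and 4.32% called lower. ADAMTS9, MMP14, ADAMTS6 and ADAMTS17 rose, and MMP2, MMP28, ADAMTS12, TIMP2, TIMP3 and TIMP4 fell. ADAMTS9 is counted here although it led to the choice of the family in a contrast with the same wild-type libraries. None of the 10 overlapped between KO and wild-type libraries, nor did some members that were not called, such as MMP15 and TIMP1. Lack of overlap was not counted over all genes and is not read as a result. The median log2 fold change was 0.19 over the members and 0.12 over all genes, and with upper-quartile normalization that over all genes became 0.28 while the 10 calls stayed. With that scaling 3872 genes were called higher and 789 lower, against 2764 and 1078 with TMM.

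The members of the MMP2 activation complex were among them. MMP2 (chr16:55389700-55506691, plus strand) had 0.151, 0.155 and 0.343 CPM in the KO, from 4 to 9 counts per library, and 6.73, 5.58 and 7.60 CPM in WT B. Every KO library lay below every wild-type library, and MMP2 fell by 5.02 on the log2 scale (SE 0.35, adjusted p = 9.02e-05). TIMP2 (chr17:78852977-78925387, minus strand) fell from 273, 289 and 277 CPM to 60.8, 47.3 and 44.3 CPM, with a log2 fold change of -2.54 ± 0.13 (adjusted p = 2.22e-05). MMP14 (chr14:22836560-22849041, plus strand) rose from 3.28, 3.88 and 3.85 CPM to 7.71, 13.2 and 10.5 CPM (log2 fold change 1.44 ± 0.23, adjusted p = 0.0031). The RNA of the activating protease was thus higher, and the RNAs of its substrate and of the TIMP that bridges them were lower. Protein levels and MMP2 activation were not measured.

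Of the other inhibitors, TIMP3 and TIMP4 fell. TIMP3, which binds to the matrix, had 0.151, 0 and 0.305 CPM in the KO, at most 8 counts, and 2.56, 2.94 and 2.14 CPM in WT B (log2 fold change -4.12 ± 0.64, adjusted p = 0.0028). TIMP4 fell from 9.77, 12.5 and 12.7 CPM to 5.45, 3.41 and 4.23 CPM (log2 fold change -1.49 ± 0.21, adjusted p = 0.0018). TIMP1 had 37.0, 26.2 and 31.9 CPM in the KO and 50.4, 54.1 and 56.3 CPM in WT B. Its log2 fold change of -0.84 ± 0.13 (adjusted p = 0.0028) did not reach the fold threshold.

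**Figure D3:**
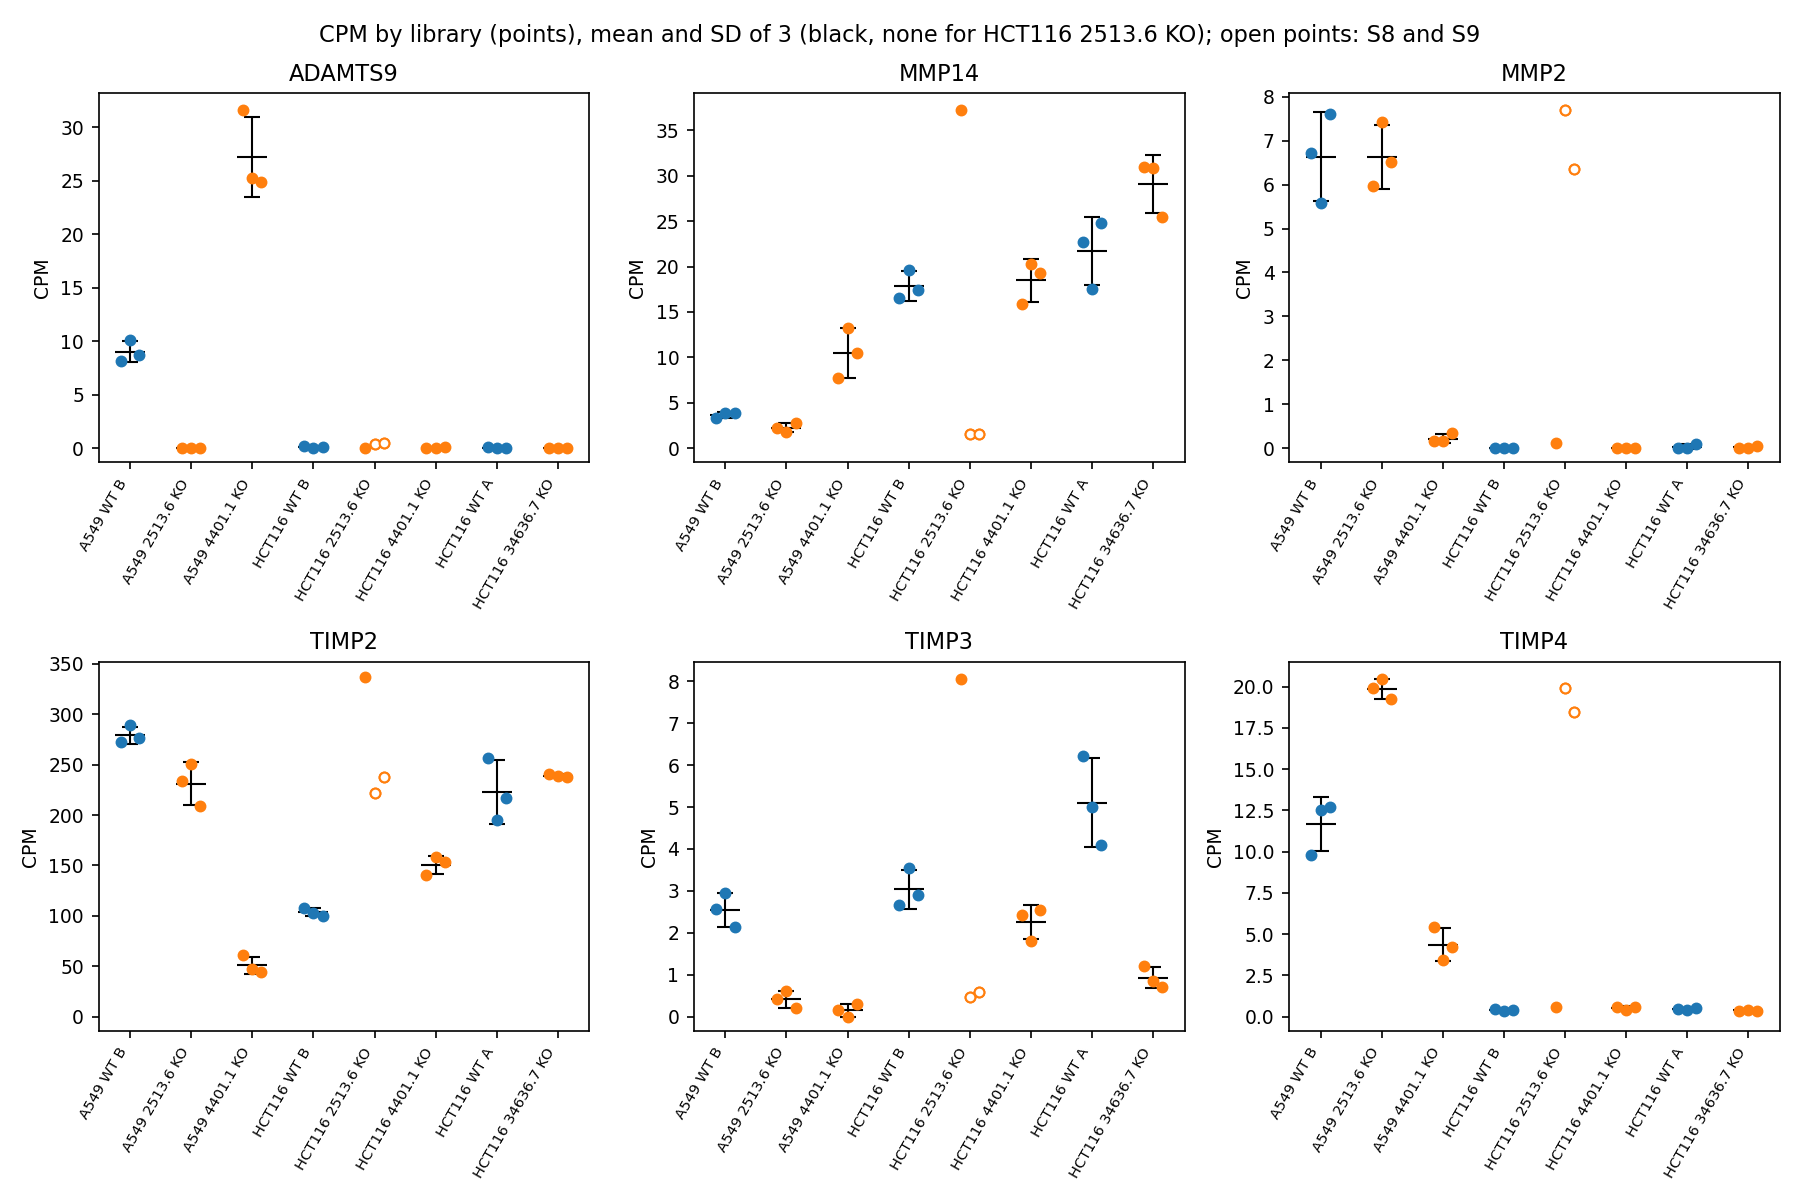
CPM of ADAMTS9, MMP14, MMP2, TIMP2, TIMP3 and TIMP4 in every library of the 8 groups, with wild-type libraries in blue, KO libraries in orange, S8 and S9 open, and the mean and SD of 3 libraries in black for every group but HCT116 MSTRG.2513.6 KO. In A549 MSTRG.4401.1 KO the ADAMTS9 and MMP14 points lie above A549 WT B and the MMP2, TIMP2, TIMP3 and TIMP4 points below it.

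The sequences upstream of the start of 3 of these genes are shown because TIMP3 and TIMP4 fell and MMP14 rose in the same libraries. They are the 250 bases before the RefSeq start (GRCh38.p14), 5′ to 3′ in the direction of transcription, with matches to the GC box GGGCGG, read on both strands, in capitals.
TIMP3 (chr22:32801455-32801704, plus strand): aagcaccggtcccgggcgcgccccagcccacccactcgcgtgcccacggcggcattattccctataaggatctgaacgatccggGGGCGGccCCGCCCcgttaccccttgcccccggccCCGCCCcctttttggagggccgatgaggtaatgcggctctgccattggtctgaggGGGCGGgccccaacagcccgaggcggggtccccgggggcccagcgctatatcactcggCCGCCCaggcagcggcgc
TIMP4 (chr3:12158913-12159162, minus strand): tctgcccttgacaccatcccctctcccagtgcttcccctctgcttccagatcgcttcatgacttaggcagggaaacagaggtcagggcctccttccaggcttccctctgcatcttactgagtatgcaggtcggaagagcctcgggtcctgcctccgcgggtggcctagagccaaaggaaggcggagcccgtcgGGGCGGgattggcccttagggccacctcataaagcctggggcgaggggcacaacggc
MMP14 (chr14:22836335-22836584, plus strand): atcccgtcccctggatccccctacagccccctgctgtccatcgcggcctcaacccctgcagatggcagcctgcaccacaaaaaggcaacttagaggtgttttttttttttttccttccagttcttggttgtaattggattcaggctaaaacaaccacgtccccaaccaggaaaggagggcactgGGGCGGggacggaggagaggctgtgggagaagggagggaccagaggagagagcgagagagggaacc
TIMP3 had 5 such matches and TIMP4 and MMP14 had 1 each. A GC box was present in 42.6% of all 35116 promoters of this length in the table and in 22 of 32 promoters of 31 members. The median GC content was 58.0% over all promoters and 68.2% over those of the members, and the shares were not adjusted for it. None of the 3 windows held TATAAA or TGANTCA, the letters of a TATA box and an AP-1 site, which were found in 10.7% and 6.57% of all promoters. Among other members called in this KO, ADAMTS12, which fell, had 1 GC box and 1 match to TGANTCA. ADAMTS17, which rose, had 1 GC box, and ADAMTS6, which also rose, had no match to any of these motifs. Promoters of ADAMTS9, MMP2, TIMP2 and MMP28 were not analysed here.

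The remaining changes concerned single proteases. ADAMTS12 fell from 22.1, 23.1 and 24.8 CPM to 10.5, 7.60 and 7.13 CPM (log2 fold change -1.56 ± 0.16, adjusted p = 0.00046). MMP28, a secreted MMP of epithelia, fell from 2.00, 2.42 and 1.90 CPM to 0.301, 0.233 and 0.419 CPM (log2 fold change -2.80 ± 0.35, adjusted p = 0.0011). ADAMTS6, a close relative of ADAMTS10, and ADAMTS17, a close relative of ADAMTS19, were called at low levels. ADAMTS6 had 0.783, 2.02 and 0.686 CPM in the KO and 0.272, 0.0673 and 0.409 CPM in WT B. Its call was lost without KO library S24 (log2 fold change 1.5, adjusted p = 0.169). ADAMTS17 had 0.361, 1.12 and 0.381 CPM in the KO and at most 0.136 CPM in WT B. Its call was lost without S24 (1.84, adjusted p = 0.241) and without wild-type library S21 (2.84, adjusted p = 0.118).

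Among members that were not called in this KO, the membrane-type enzymes MMP15, MMP17 and MMP24 had log2 fold changes of -0.94 ± 0.14, 0.57 ± 0.17 and -0.34 ± 0.11. ADAMTS10, which acts on fibrillin microfibrils, had 97.2, 87.7 and 77.6 CPM against 48.8, 56.0 and 74.2 CPM, with a log2 fold change of 0.48 ± 0.13. ADAMTS7, ADAMTS13, ADAMTS15, ADAMTS16, ADAMTSL4 and ADAMTSL5 had values between -0.47 and 0.41.

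Other genes of the pathway, listed by function, were read beside the members. Among 12 genes of protease activation and inhibition, 1 rose and 4 fell in A549 MSTRG.4401.1 KO. PLAU, the urokinase that starts the plasmin cascade, fell from 90.6, 105 and 98.2 CPM to 23.7, 17.8 and 17.6 CPM (log2 fold change -2.39 ± 0.13). PLAT, the other plasminogen activator, and SERPINE2, a serine protease inhibitor, also fell. A2M, a broad protease inhibitor, rose at a low level, from at most 0.385 CPM to at least 1.33 CPM. Of 18 matrix substrates tested, 1 rose and 6 fell, among them the microfibril proteins FBN1 and FBN2. Of 7 ADAM sheddases tested, ADAM19 fell and none rose. Of 8 regulators, FOS rose (log2 fold change 2.72 ± 0.33) and JUN, ETS1 and RUNX2 fell. The 8 fibroblast markers summed to 22.9 to 26.6 CPM in the KO and 33.3 to 47.5 CPM in WT B. PDGFRA and THY1 of that list fell, and 3 to 6 of the 8 genes were at 0 counts per KO library. The 7 leukocyte markers summed to 5.70 to 7.39 CPM in the KO and 9.97 to 14.2 CPM in WT B, and CD14 and ITGAM fell. Of the colon markers, whose sum was higher in the KO as given above, VIL1 rose and CDX2 fell. None of the 5 lung markers tested was called. The part of these markers and of the mitochondrial share in the changes was not tested.

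The same transcript was also deleted in HCT116, where few members were called. In HCT116 MSTRG.4401.1 KO against WT B, 1 of 29 members tested rose and 1 fell, beside 0.996% of all 26615 genes called higher and 1.62% called lower. The unadjusted p was under 0.05 for 14 of these members and for 6836 of all genes. With WT A as the control, 2 of 28 members rose and 3 fell, beside 1273 and 1470 of 26786 genes. Against WT B, ADAMTS2 rose from 5.11, 4.89 and 4.69 CPM to 10.1, 11.3 and 12.1 CPM, with no overlap (log2 fold change 1.17 ± 0.11, adjusted p = 0.00082). Against WT A, whose libraries had 4.98, 12.8 and 8.69 CPM of ADAMTS2, its log2 fold change was 0.33 ± 0.30 and the call was lost. MMP28 fell with an adjusted p = 0.090 (log2 fold change -1.05 ± 0.33), from 0.896, 1.12 and 1.71 CPM to 0.523, 0.492 and 0.806 CPM. This call was lost without KO library S10 (-0.96) or S15 (-0.92) and without WT B library S13 (-1.11) or S14 (-0.75), with adjusted p of 0.166 to 0.259. TIMP2 had 140, 158 and 153 CPM in the KO and 108, 103 and 100 CPM in WT B. Its log2 fold change was 0.52 ± 0.05 against WT B and -0.58 ± 0.15 against WT A, so that its direction turned with the wild type used. MMP14 had 0.03 ± 0.12 on this scale. PLAU was called in this KO too, with a log2 fold change of -1.41 ± 0.07.

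The difference between the cell lines was tested as an interaction over 12 libraries, at FDR < 0.1. Of 34 members tested, the effect of MSTRG.4401.1 KO was higher in A549 for 6 and lower for 7, beside 11.6% and 15.4% of 30134 genes. The median difference over all genes was 0.10, and 0.24 with upper-quartile normalization, which turned the 3490 genes called higher and 4626 called lower into 4642 and 3729. TIMP2 had the smallest adjusted p, with a difference of -3.10 ± 0.15 (adjusted p = 1.99e-07), and with WT A as the HCT116 control the difference was -1.94 ± 0.21. TIMP3 and TIMP4 differed by -3.71 ± 0.66 and -1.90 ± 0.34, and MMP14 by 1.37 ± 0.25. For MMP2, with 0 counts in both HCT116 groups, the difference could not be estimated. ADAMTS9 had 2.71 ± 1.11 (adjusted p = 0.11), with at most 8 counts in any of those HCT116 libraries.

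**Figure D4:**
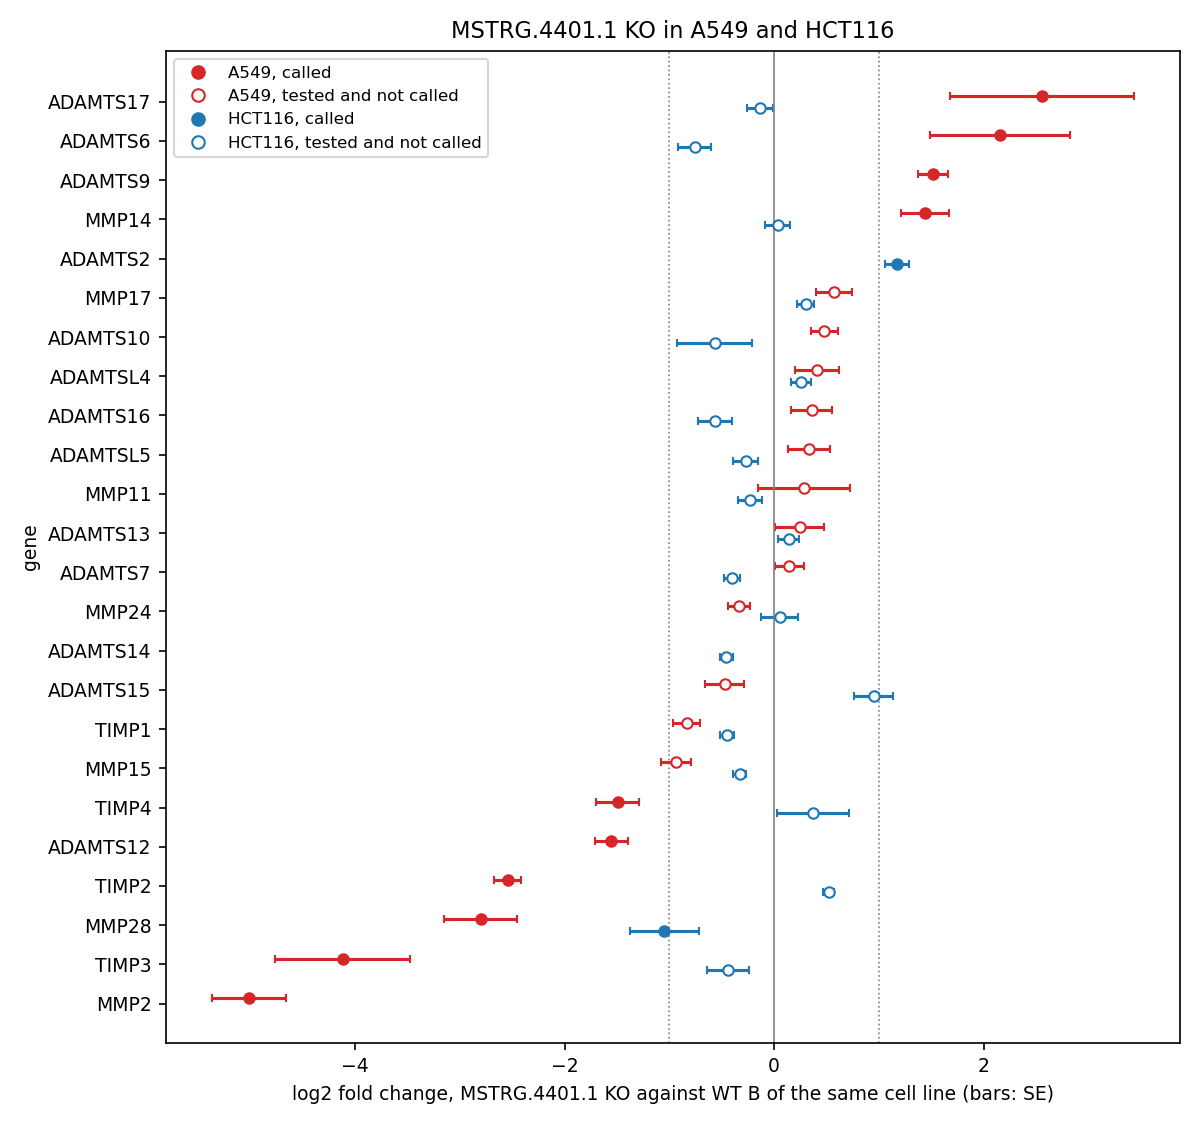
Log2 fold change of MSTRG.4401.1 KO against WT B in A549 (red) and HCT116 (blue) for the named members that were tested, with bars for the SE, filled points for called members and dotted lines at -1 and 1. The MMP2, TIMP3, MMP28 and TIMP2 points of A549 lie farthest to the left, and the called HCT116 points are ADAMTS2 (1.17) and MMP28 (-1.05), with ADAMTS15 (0.95) just inside the dotted line.

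A549 MSTRG.2513.6 KO is described by its values, since this KO led to the choice of the family. In it 0 of 31 members lay above the limits used elsewhere and 3 below them, and 1.13% and 1.79% of all 25666 genes did so. Nothing is read from these counts. The 3 were ADAMTS9 itself, TIMP3 and ADAMTS8, a protease of the aggrecanase group. TIMP3 had 0.407, 0.611 and 0.214 CPM in this KO and 2.56, 2.94 and 2.14 CPM in WT B. ADAMTS8 had 0.0783, 0.192 and 0.385 CPM against 0.696, 0.908 and 0.842 CPM. TIMP4 had 19.9, 20.5 and 19.2 CPM against 9.77, 12.5 and 12.7 CPM, without overlap. MMP2 had 5.98, 7.42 and 6.50 CPM, within the wild-type range, and TIMP2 had 234, 251 and 209 CPM.

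Set directly against each other in a separate fit, the 2 A549 KOs differed in 9 of the 28 members tested other than ADAMTS9, with 7 higher and 2 lower in MSTRG.2513.6 KO, beside 5.75% and 10.9% of 25161 genes. With upper-quartile normalization the 1446 genes called higher and 2735 called lower became 992 and 3920. ADAMTS9, whose 0 counts in this KO led to the choice of the family, is left out of this count. TIMP2, TIMP4 and TIMP1 were higher in MSTRG.2513.6 KO, by 2.33 ± 0.16, 2.33 ± 0.21 and 1.21 ± 0.17 on the log2 scale, MMP2 by 5.08 ± 0.36, ADAMTS12 by 1.20 ± 0.19 and MMP28 by 1.96 ± 0.41. MMP14 was lower, by -2.09 ± 0.28. With upper-quartile normalization, ADAMTS12 was no longer called. MMP9 and MMP11 were also called, at group means under 1 CPM, and MMP9 lost the call without any 1 of S17, S18, S19, S23 and S24 (log2 fold change 2.00 to 2.82), and MMP11 without S17, S18 or S25 (-1.97 to -1.60). TIMP3 was low in both KOs and was not called between them (1.55 ± 0.87, adjusted p = 0.21).

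In HCT116 MSTRG.2513.6 KO, TIMP2 was the member called. With all 3 libraries, 1 of 29 members rose and 0 fell, beside 0.66% and 0.273% of 26374 genes, and 8 members had an unadjusted p under 0.05. DESeq2 called 9 members higher and 0 lower, beside 3027 and 573 of 42553 genes. TIMP2 had 337 CPM in S11, 222 and 238 CPM in S8 and S9 and 108, 103 and 100 CPM in WT B (log2 fold change 1.53 ± 0.11, adjusted p = 0.051). That call was lost without any 1 of S8, S9, S12, S13 and S14, with a log2 fold change of 1.49 to 1.56 and adjusted p of 0.275 to 0.425. Against WT A the log2 fold change of TIMP2 was 0.40 ± 0.20. Without S11, 10 of 32 members were called higher and 11 lower, beside 4900 and 5736 of 28577 genes, and ADAMTS2 turned to -5.43. Without S8 and S9, S11 stands alone for the KO and is assumed to vary like WT B. In that fit the median log2 fold change was 0.55 over the 31 members and 0.01 over all genes. Members measured in 1 KO library are not replicates of the KO, so this is not read as a trait of the family. Single log2 fold changes of that fit were 1.94 for ADAMTS2, 1.67 for MMP28, 1.61 for TIMP2 and 1.32 for TIMP3.

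In HCT116 MSTRG.34636.7 KO against WT A, 0 of 30 members rose and 2 fell, beside 0.729% and 0.607% of 28816 genes. TIMP3 had 1.20, 0.855 and 0.714 CPM in the KO and 6.22, 4.99 and 4.10 CPM in WT A. The groups did not overlap, and TIMP3 fell by 2.47 on the log2 scale (SE 0.28, adjusted p = 0.010). Against WT B, with 2.65, 3.54 and 2.91 CPM, its log2 fold change was -1.74 ± 0.24. ADAMTS16, known for roles in blood pressure and the kidney, had 2.37, 2.33 and 2.19 CPM in the KO and 10.5, 6.58 and 6.54 CPM in WT A (log2 fold change -1.78 ± 0.25, adjusted p = 0.024). This call was lost without KO library 1A, 2A or 3A (-1.80 to -1.78, adjusted p of 0.140 to 0.160). ADAMTS2 had 18.1, 18.7 and 13.9 CPM against 4.98, 12.8 and 8.69 CPM and was not called (0.94 ± 0.30). SYN3, which holds TIMP3 in an intron on the opposite strand, stayed at or below 0.385 CPM in every group.

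The values of TIMP3 side by side were -4.12 in A549 MSTRG.4401.1 KO, -2.61 in A549 MSTRG.2513.6 KO, which shares the same wild-type libraries, and -2.47 in HCT116 MSTRG.34636.7 KO. In HCT116 MSTRG.4401.1 KO its log2 fold change was -0.44 ± 0.20 against WT B and -1.18 ± 0.25 against WT A, where it was called. HCT116 MSTRG.2513.6 KO went partly the other way and was not called against WT B. There S11 had 8.06 CPM of TIMP3 and S8 and S9 had 0.466 to 0.597 CPM, beside 2.65 to 3.54 CPM in WT B. Without S8 and S9 the log2 fold change of TIMP3 in that KO was positive, as given above.

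The 2 sets of HCT116 wild-type libraries differed in some members themselves, which touches every HCT116 result above. In WT A against WT B, 3 of 29 members were higher and 2 lower, beside 3.16% and 3.9% of 27280 genes. TIMP2 had 257, 195 and 217 CPM in WT A and 108, 103 and 100 CPM in WT B (log2 fold change 1.09 ± 0.14, adjusted p = 0.0023). Without WT A library 1A its log2 fold change was 0.98, just under the fold threshold. MMP21, an enzyme known for left-right patterning of the embryo, had 0.996, 0.958 and 0.733 CPM in WT A and 4.83, 4.50 and 4.67 CPM in WT B (-2.40 ± 0.22, adjusted p = 0.00033). ADAMTSL5 had 10.2, 4.97 and 5.53 CPM against 19, 19.3 and 21.4 CPM (-1.54 ± 0.28). MMP19 (1.53 ± 0.35) and ADAMTS10 (1.12 ± 0.33) were called higher in WT A. The call of MMP19 was lost without S13 (1.47) or S14 (1.45) and that of ADAMTS10 without S13 (1.05), S14 (0.91), 1A (0.79) or 3A (1.20). ADAMTS14 had 65.1, 16.6 and 24.7 CPM in WT A, where library 1A stood near the 65.4 to 75.4 CPM of WT B and the other 2 libraries well below it.

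**Figure D5:**
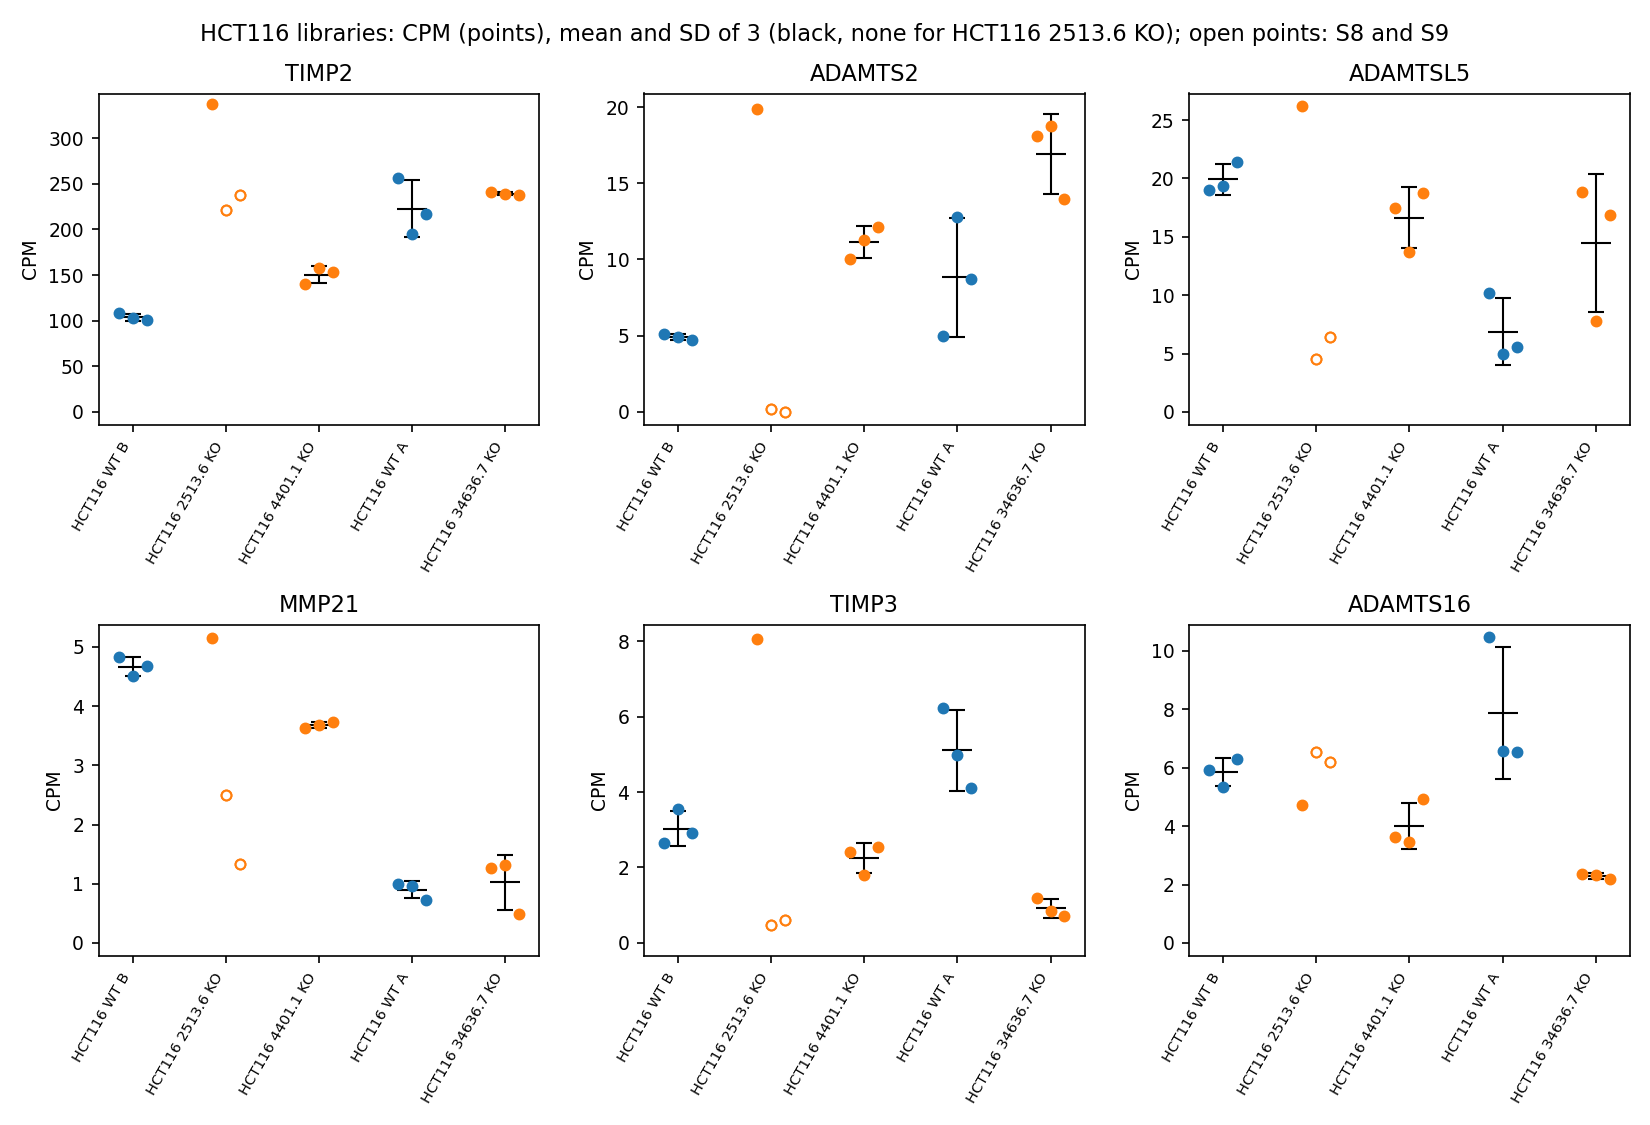
CPM of 6 members in the 5 HCT116 groups, with wild-type libraries in blue, KO libraries in orange, S8 and S9 open, and the mean and SD of 3 libraries in black for every group but MSTRG.2513.6 KO. The WT A points of TIMP2 lie above those of WT B, its MMP21 and ADAMTSL5 points lie below, and the TIMP3 and ADAMTS16 points of MSTRG.34636.7 KO lie below those of both wild types.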

How the data were processed

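The data were RNA-seq gene counts of 24 libraries, placed in 8 groups of 3 by their labels. The authors trimmed reads with Trim Galore 0.6.6, aligned them to hg38 with HISAT2 2.2.1, quantified them with StringTie, and deposited a table of whole-number counts for each library, neither normalized nor pooled. FastQC 0.11.9 is named in the submitters' processing notes. Libraries share 60641 symbols, and 3 symbols in the A-numbered libraries alone were left out. No symbol was blank.

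From these counts, each comparison was fitted over all genes with edgeR 4.0.16 (TMM, filterByExpr, glmQLFit, glmQLFTest; limma 3.58.1, R 4.3.3) and Benjamini-Hochberg adjustment. Called means FDR < 0.1 and |log2(fold change)| > 1, and FDR < 0.1 for the interaction. CPM uses the library total without TMM. Bounds against 0 counts use 3 counts per library and cover counting error only. Reads carried no molecular identifiers and so are not independent molecules. Alternatives were DESeq2 1.42.0, upper-quartile normalization, no filter, each library left out, the other HCT116 wild type, omission of S8 and S9, and a replicate block. The fits were tested on simulated data.

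The members, lists and tests were chosen with earlier results of these data known. Named were members called in a KO comparison with a mean of at least 1 CPM in a compared group, those with 10 CPM in any group, and ADAMTS9. Others named for low levels or calls outside this rule were picked after their values were seen. All 50 members were found in GENCODE v44 (GRCh38), whose exon lengths were used. ADAMTS7 is known to have pseudogene copies and overlaps MORF4L1, and read sharing was not measured.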

Additional observations from a re-analysis of the deposited data

Results flagged for a closer look

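The effect of MSTRG.4401.1 KO differed between A549 and HCT116 for 13 members, by the interaction test in edgeR over 12 libraries (FDR < 0.1). On the log2 scale, the effect in A549 minus that in HCT116 was positive for ADAMTS6 (2.88), ADAMTS17 (2.62), MMP14 (1.37), ADAMTS16 (0.88), ADAMTSL5 (0.57) and ADAMTS7 (0.51). It was negative for ADAMTS2 (-7.36), TIMP3 (-3.71), TIMP2 (-3.10), TIMP4 (-1.90), MMP28 (-1.79), ADAMTS15 (-1.45) and MMP15 (-0.64). ADAMTS2 had 0 counts in the 3 A549 KO libraries and at most 0.370 CPM in A549 WT B, so its value depends on the prior count. ADAMTSL5 was close to the threshold (adjusted p = 0.0985) and stayed called in 2 of 12 fits without 1 library. Without A549 library S22 its difference was 0.37. The other 12 members stayed called in all 12 such fits. With HCT116 WT A as the control, MMP15 and MMP28 also lost the call, and MMP28 had -1.25.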

How the results depend on the processing

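Members called numbered 21 without S11, 0 without S8, S9, S12, S13 or S14, 5 without S8 and S9, 9 with DESeq2 and 0 with WT A in HCT116 MSTRG.2513.6 KO, where the main count was 1. In HCT116 MSTRG.4401.1 KO (2) the count was 1 without the filter, 5 with WT A and 1 to 2 without 1 library. In HCT116 MSTRG.34636.7 KO (2) it was 4 with DESeq2, 11 with WT B and 1 to 3 without 1 library. Leaving out 1 library gave 2 to 4 calls in A549 MSTRG.2513.6 KO, 9 to 14 in A549 MSTRG.4401.1 KO, 3 to 6 in WT A against WT B, 22 to 25 between the wild types of the 2 cell lines, 8 to 11 between the A549 KOs and 12 to 16 in the interaction. In 4 fits a named member turned direction and was called before or after. In HCT116 MSTRG.2513.6 KO, ADAMTS2 (0.37) was -5.43 without S11, and at most 0.94 without another library, and TIMP3 was 1.32 without S8 and S9. With WT A, ADAMTSL5 was 1.26 in the HCT116 KO of MSTRG.4401.1 and -0.91 in the interaction. TIMP2 in that KO, not called with either control, also turned, from 0.52 to -0.58. For named members that were called, 624 of the refitted values kept call and direction and 50 lost the call. The cause of these shifts was not tested. With a replicate block, 2 members stayed called in HCT116 MSTRG.34636.7 KO, while 79 genes were called higher and 87 lower over all genes, against 210 and 175. Between the wild types of the 2 cell lines 22 members were called under the block. Correlations of deviations between same-numbered libraries were 0.0114 to 0.0360 (MSTRG.34636.7 KO and WT A) and -0.0776 to -0.0135 (wild types). In the first pair of groups the values were small, but every library correlated best with its own number. Whether the numbers pair those libraries is thus not settled. Between the wild types no same-numbered libraries had a positive correlation. Over all genes, HCT116 MSTRG.2513.6 KO had 174 higher and 72 lower calls, 3027 and 573 with DESeq2, 4 and 2 without the filter, 582 and 318 with WT A, 1571 and 1054 without S8 and S9, 4900 and 5736 without S11, and 0 without S8, S9, S12, S13 or S14 (3024 to 3555 genes at unadjusted p under 0.05). The HCT116 KO of MSTRG.4401.1 had 265 and 432, and 1273 and 1470 with WT A. That of MSTRG.34636.7 had 501 and 388 with DESeq2, 2151 and 1908 with WT B, 480 and 266 without WT A library 2A, and 35 to 36 and 44 to 57 without 1 KO library. A549 MSTRG.2513.6 KO had 291 and 459, 201 and 296 without S20, and 175 and 276 without S21. Depth limits values near 0.116 CPM or lower.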
